A study of Mus musculus with 6 samples.

Results

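The comparison described here is that of vehicle cultures 24 h after treatment with vehicle cultures 6 h after treatment, the change that occurred in these cultures without heme. It rests on 2 of the 6 arrays of the study, 1 at each time, and on 11516 of the 19936 genes that a single-gene probe set represented. A gene was kept when its highest level on the 6 arrays reached 5.37, the median of all deposited log2 values. With 1 array per time there was no replicate check and no test. Differences are 24 h minus 6 h on the log2 scale, and a gene was counted as higher or lower at 24 h when the levels differed 2-fold or more. Just inside the level filter lay Magi1, with a highest level of 5.37496, and just outside it Trpm2, with 5.37455.

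All arrays carry RNA of bone marrow cells from mice of the genotype Spic(igfp/igfp), where Spic is the gene for the macrophage transcription factor SPI-C. The sources used here do not say what the igfp allele carries. The marrow was grown in Iscove's medium supplemented with fetal calf serum (10%) and with GM-CSF at 20 ng/ml, a cytokine under which marrow progenitors become macrophages and dendritic cells. After 6 days the vehicle cultures received the solvent alone, 0.15 M NaCl with 10% NH4OH, and the heme cultures received heme at 80, a dose whose unit is typed as µm. Floating cells were removed with the medium and the adherent cells were scraped off for total RNA at 6, 24 or 72 h. No culture without any addition was analysed here, and the labels leave unsaid if separate mice or dishes supplied the arrays.

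Bone marrow grown in GM-CSF begins as a mixture in which dividing precursors and granulocytes stand beside maturing macrophages and dendritic cells. Cells that divide express the replication machinery in S phase and then the kinases, motors and kinetochore proteins of mitosis, and both programs are shut off as macrophages mature. Neutrophil precursors fill their granules in waves, making lactoferrin, cathelicidin and neutrophilic granule protein before they mature, so these transcripts mark immature granulocytes. The S100A8 and S100A9 proteins and lipocalin 2, in contrast, are also made by monocytes and macrophages.

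The 2 vehicle arrays had nearly equal medians (5.34 at 24 h and 5.34 at 6 h), and they correlated at 0.986 across probe sets, the highest of the 15 pairs of arrays. All 8 macrophage markers were at or above the table's median level at both times, among them Csf1r, the receptor for M-CSF, at 10.93 at 24 h and 10.52 at 6 h. Of 7 dendritic cell markers, 4 reached that level at both times, while Zbtb46, Flt3 and Cd209a, which define classical and monocyte-derived dendritic cells, lay below it at both. Mast cell, basophil, erythroid and lymphoid markers on the array were below it on both vehicle arrays, and the 5 stromal markers, 3 of them above it, summed to 378 at 24 h and 404 at 6 h. Actb, the gene of cytoskeletal actin, differed by -0.06.

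Most genes differed little between the arrays. The median difference was -0.01 with an SD across genes of 0.33, and 93.8% of the 11516 genes stayed within 1.5-fold. A negative difference was found in 5996 genes (52.1%) and a positive one in 5514, the background for the sign counts of lists below. At 24 h 41 genes (0.356%) were 2-fold or more higher and 145 genes (1.26%) were 2-fold or more lower, so 1.62% of genes passed the fold limit and 78.0% of those were lower. A 4-fold limit left 3 genes higher and 13 lower. Of the 145 lower genes, 38 had a 24 h level below the table's median, and of the 41 higher genes 5 had a 6 h level below it. Folds against such dim levels are given below as bounds, with the dim level set to the median, and where a log2 difference rests on one its bound stands beside it. Just inside the fold limit lay Gpr141 (1.01) and Bcl6 (-1.0002), and just outside it Gpr155 (0.996) and Marco (-0.993).

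**Figure D1:**
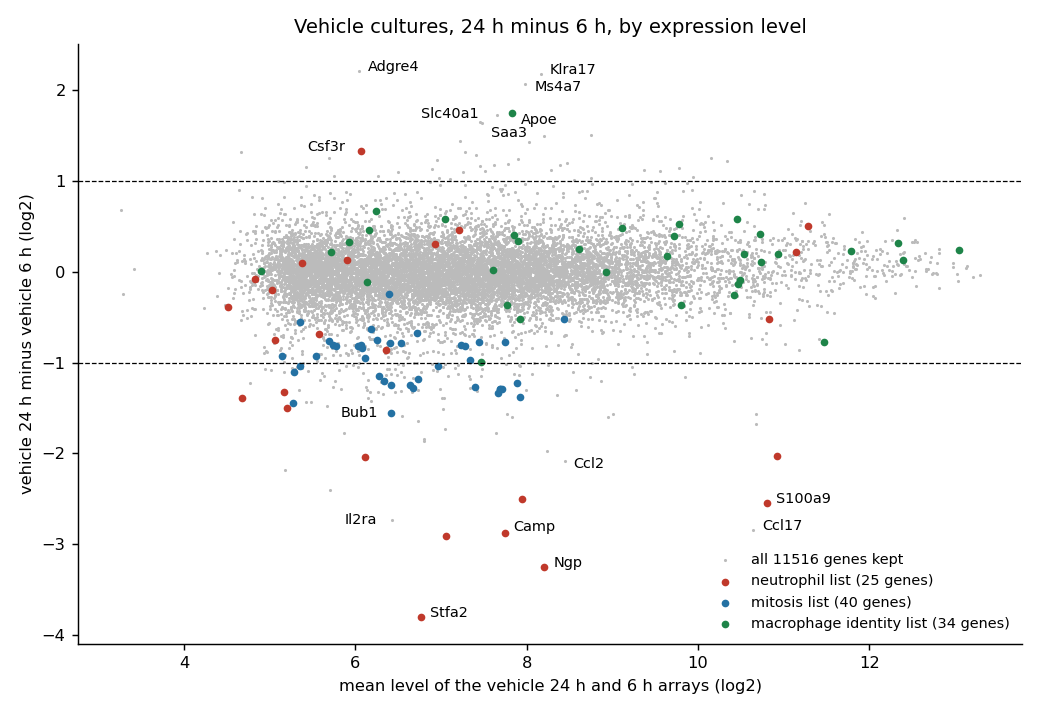
Difference between the vehicle 24 h and 6 h arrays (y axis, log2) against the mean level of the same arrays (x axis, log2) for the 11516 genes kept, 1 point per gene. Dashed lines mark 2-fold. Genes of the neutrophil list reach the lowest values, down to -3.80 for Stfa2 (at least -3.29 as a bound), and the 40 mitosis genes all lie below 0.

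The lowest differences belonged to genes of the neutrophil list, led by the stefin gene Stfa2 and followed by granule genes. Ngp, the gene of neutrophilic granule protein, had a level of 6.58 at 24 h and 9.83 at 6 h, a 9.55-fold lower level. Camp, which encodes the antimicrobial cathelicidin, had 6.30 at 24 h and 9.18 at 6 h, or 7.36-fold lower. Ltf, the gene of lactoferrin, an iron-binding granule protein, had 5.09 at 24 h and 7.12 at 6 h, which with the dim level at the median was at least 3.36-fold lower. All 3 proteins belong to the specific granules of neutrophils, and each gene was lower at 24 h.

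Stefin A genes encode inhibitors of cysteine proteases, and Stfa2 had the lowest difference of all genes. Stfa2 had a level of 4.87 at 24 h and 8.67 at 6 h, at least 9.81-fold lower, and Stfa3 had 5.60 at 24 h and 8.51 at 6 h, 7.50-fold lower. Csta3, of the same family, had 4.09 at 24 h and 6.27 at 6 h, at least 1.86-fold lower. The stefin A genes are near-identical copies, so probes may read more than 1 of them and the 3 values are not separate evidence.

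The calcium-binding alarmins and lipocalin 2 were lower at 24 h as well. S100a9 had a level of 9.53 at 24 h and 12.08 at 6 h, 5.84-fold lower. S100a8, which encodes its partner in the calprotectin complex, had 9.91 at 24 h and 11.94 at 6 h, 4.08-fold lower. Lcn2, encoding a protein that binds bacterial siderophores, had 6.70 at 24 h and 9.20 at 6 h, 5.68-fold lower. These 3 genes stayed above the table's median on both arrays, so their differences are measured on both sides.

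Of 30 neutrophil genes on the array 25 were kept, and of these 11 were 2-fold lower, 1 was 2-fold higher and 13 lay between, beside 1.26% lower and 0.356% higher among all genes. The list's median was -0.75 against -0.01 for all genes. It was -0.45 with dim levels at the median, -1.09 with the level filter on the vehicle arrays and -2.03 with a filter at the 75th percentile. Both filters keep members bright at 6 h alone and drop members dim on the arrays they read. Their lower medians are thus over selected members and are not added evidence. Olfm4, Trem1 and Ly6g also passed the limit, but with the dim level at the median they were only at least 1.49-fold, 1.37-fold and 1.002-fold lower. By sign, 18 of the 25 were negative and 7 positive, beside 52.1% of all genes negative. The 1 member past the limit on the higher side was Csf3r, the receptor for G-CSF. It had 6.73 at 24 h and 5.40 at 6 h, 2.52-fold higher. Mmp8, a collagenase named for neutrophils, had 11.53 at 24 h and 11.03 at 6 h, and Elane and Mpo, enzymes of the azurophil granules, had 4.93 and 5.42 at 24 h against 5.13 and 5.33 at 6 h.

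Over the 8 neutrophil markers, 7 were lower at 24 h, beside 52.1% of all genes. Among these 7, Elane was dim at both times. With the dim level at the median, Ly6g and Cxcr2 were only at least 1.002-fold and 1.05-fold lower. The summed linear level of the 8 markers was 1286 at 24 h against 5721 at 6 h. S100a8, which is not specific to neutrophils, made up 962 and 3928 of these sums, and the other 7 markers summed to 324 at 24 h against 1793 at 6 h. Of the 8 markers, 4 reached the table's median at 24 h and 6 at 6 h. The RNA came from adherent cells pooled after floating cells were removed. In such RNA, fewer adherent cells of a type and less RNA per cell cannot be told apart. Which of the 2 lies behind these values was not tested. Eosinophil granule genes were also lower. Prg2, which encodes major basic protein, had 7.24 at 24 h and 9.22 at 6 h, 3.94-fold lower, and Epx, the eosinophil peroxidase gene, had 4.76 at 24 h and 5.83 at 6 h, at least 1.38-fold lower. Of the 4 eosinophil markers, 2 were lower and 2 higher, Il5ra and Ccr3 lay below the median at both times, and the summed level was 202 at 24 h against 675 at 6 h.

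Genes of mitosis were lower as a group. All 40 genes of this list had a negative difference, from -1.56 to -0.25, beside 52.1% of all genes. Of the 40, 18 were 2-fold or more lower and none was 2-fold higher, beside 1.26% of all genes lower. The median was -0.94, or -0.81 with dim levels at the median, against -0.01 for all genes. Summed on the linear scale, the 40 genes had 3271 at 24 h and 6590 at 6 h, a ratio of 0.496.

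Bub1, a checkpoint kinase of the kinetochore, had the lowest difference of the list, with a level of 5.63 at 24 h and 7.19 at 6 h, 2.95-fold lower. Ccnb2, which encodes the mitotic cyclin B2, had 7.23 at 24 h and 8.61 at 6 h, 2.61-fold lower. Cdca3, a trigger of mitotic entry, had 6.998 at 24 h and 8.33 at 6 h, 2.52-fold lower. Ttk, the spindle checkpoint kinase MPS1, was dim at 24 h (4.54 against 5.99 at 6 h) and at least 1.53-fold lower. The proliferation marker Mki67 had 7.28 at 24 h and 8.50 at 6 h, 2.34-fold lower. Ndc80, a microtubule-binding protein of the outer kinetochore, differed least, with 6.27 at 24 h and 6.52 at 6 h.

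The promoters of the 4 genes with the lowest differences of the mitosis list are shown because mitotic genes are known to share a pair of elements near their start sites, the CHR element and the CCAAT box. The sequences are from RefSeq (GRCm38.p6), 150 bases before to 50 bases after the start, read 5′ to 3′ on the gene's strand. They lie at chr2:127831810-127832009 (minus strand) for Bub1, chr9:83834539-83834738 (plus strand) for Ttk, chr9:70421505-70421704 (minus strand) for Ccnb2 and chr6:124830026-124830225 (plus strand) for Cdca3. Capitals mark TTTGAA or TTCGAA (CHR) and CCAAT, on either strand.
Bub1: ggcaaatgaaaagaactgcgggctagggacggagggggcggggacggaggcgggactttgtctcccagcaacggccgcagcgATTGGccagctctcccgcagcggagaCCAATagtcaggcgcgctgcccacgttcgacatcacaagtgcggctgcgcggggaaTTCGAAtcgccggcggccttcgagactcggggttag
Ttk: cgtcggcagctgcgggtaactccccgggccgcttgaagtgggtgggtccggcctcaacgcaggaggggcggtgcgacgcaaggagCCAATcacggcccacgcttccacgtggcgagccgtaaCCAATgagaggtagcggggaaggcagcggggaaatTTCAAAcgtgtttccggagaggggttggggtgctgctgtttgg
Ccnb2: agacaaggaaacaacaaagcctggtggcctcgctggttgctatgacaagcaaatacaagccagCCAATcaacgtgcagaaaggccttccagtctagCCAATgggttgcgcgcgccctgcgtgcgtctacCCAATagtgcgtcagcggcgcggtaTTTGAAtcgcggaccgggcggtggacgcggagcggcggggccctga
Cdca3: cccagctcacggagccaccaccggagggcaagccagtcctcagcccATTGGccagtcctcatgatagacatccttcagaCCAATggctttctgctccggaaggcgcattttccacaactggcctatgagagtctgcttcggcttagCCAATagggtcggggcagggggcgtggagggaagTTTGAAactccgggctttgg

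Each of the 4 sequences held 1 CHR motif, and they held 2, 2, 3 and 3 CCAAT motifs in the order printed. In windows of 300 bases (250 before to 50 after the start), 14 of the 16 mitosis genes that were 2-fold lower and had a window held CHR (87.5%), and 13 held CHR and CCAAT (81.25%). Over the whole list, 29 of 34 windows held CHR (85.3%) and 25 held both (73.5%). Among the windows of 9292 kept genes 13.95% held CHR and 5.80% held both, and among all 27025 windows 19.4% and 7.70% did. CHR and CCAAT were thus frequent in the mitosis genes whether or not they passed 2-fold. Birc5 and Nusap1, both 2-fold lower, held neither. The motifs share no letters that would make a match to 1 count as the other, and a match describes these letters, not a site in use.

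DNA replication genes showed the same direction with smaller values. Of 38 genes 37 had a negative difference and 7 were 2-fold or more lower, beside 52.1% and 1.26% of all genes. The list's median was -0.62. Mcm6, a subunit of the replicative helicase, had 5.86 at 24 h and 7.73 at 6 h, 3.65-fold lower. Tyms, the thymidylate synthase gene, had 6.31 at 24 h and 7.70 at 6 h, 2.62-fold lower. Mcm2, Uhrf1 (a factor for maintaining DNA methylation), Rrm2 (a subunit of ribonucleotide reductase), Fen1 and Mcm5 lay between -1.32 and -1.11. Pcna, the sliding clamp of the polymerases, differed by -0.46, with 10.15 at 24 h and 10.60 at 6 h. The E2F motif (TTTCGCGC or TTTGGCGC, either strand) was in the windows of 8 of 31 replication genes (25.8%), against 1.59% of the kept genes' windows, and in 2 of the 7 that were 2-fold lower.

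Upstream of these programs, D-type cyclins and Myc were lower too. Ccnd1, which encodes cyclin D1, a partner of the kinases that open the G1 phase, had 5.87 at 24 h and 7.72 at 6 h, 3.60-fold lower. Ccnd2, the gene of cyclin D2, had 6.996 at 24 h and 8.34 at 6 h, 2.54-fold lower. Myc, a transcription factor for growth, had 8.16 at 24 h and 9.31 at 6 h, 2.23-fold lower. E2f8, a repressor among the E2F factors, had 5.65 at 24 h and 6.998 at 6 h, 2.55-fold lower. These 4 were the only genes of 33 in the list of cell cycle inhibitors, D cyclins and p53 targets to pass 2-fold. That compares with 1.26% of all genes lower, and the list's median was -0.11. Of 17 histone genes kept 12 were negative, beside 52.1% of all genes, with a median of -0.28. H2bc14 was 2-fold lower (-1.05) and H2bc4 2-fold higher (1.22), and as near-identical copies histone genes may share probes.

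**Figure D2:**
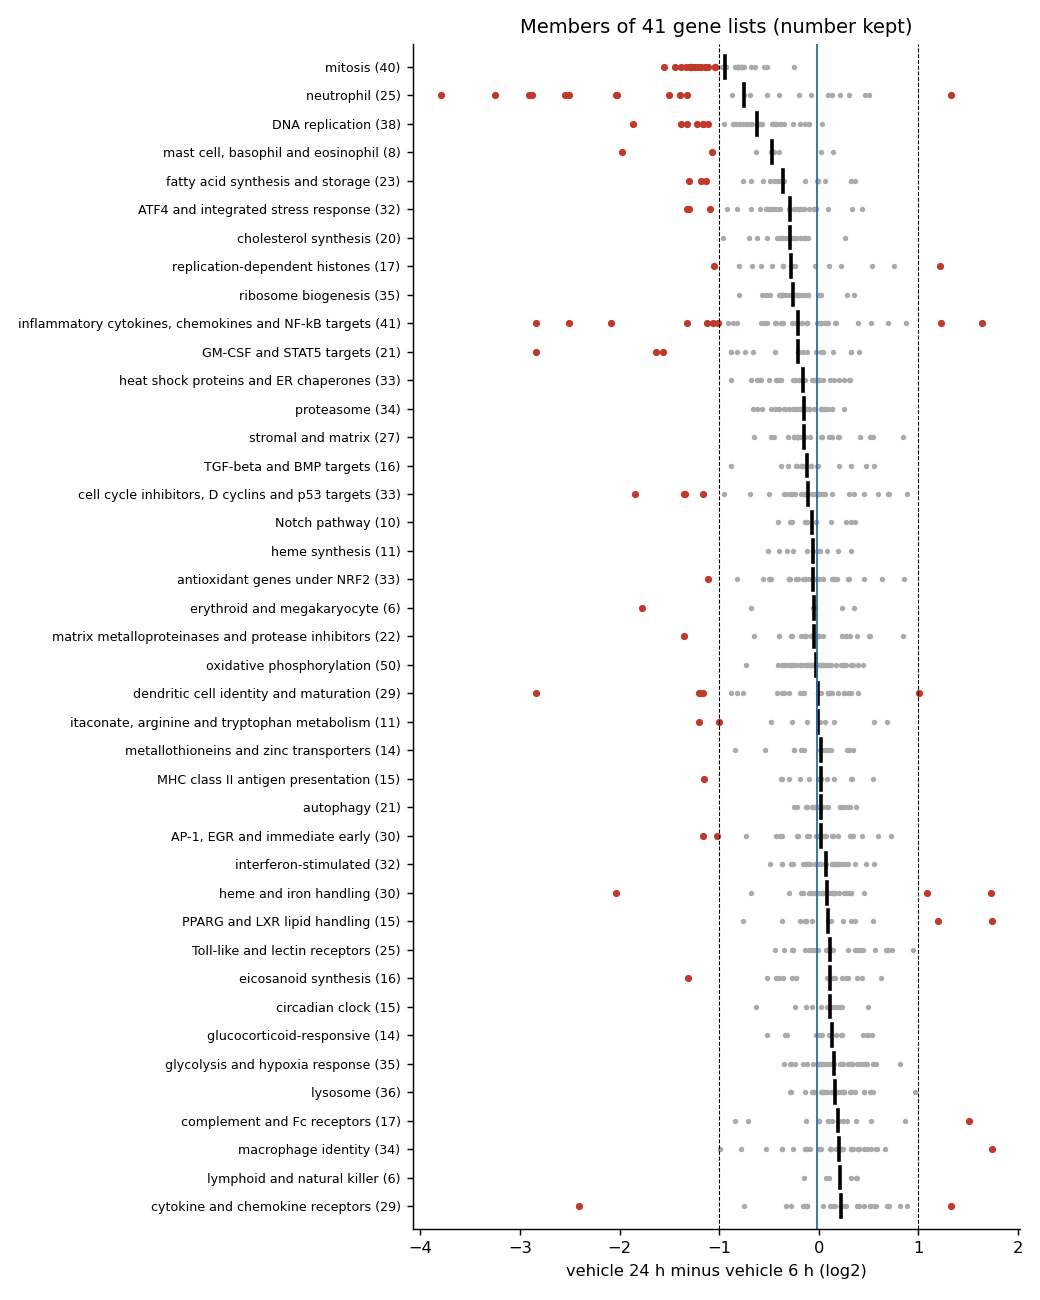
Difference between the vehicle 24 h and 6 h arrays (x axis, log2) for each kept member of 41 gene lists, 1 point per gene, with the number kept in brackets. Black bars are list medians, red points passed 2-fold (dashed lines) and the blue line is the median of all 11516 genes. The mitosis list has the lowest median (-0.94), the neutrophil list the widest spread (-3.80 to 1.33).

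Genes downstream of GM-CSF, which signals through STAT5, included some of the lowest differences but not as a whole. Of 21 genes kept, 3 were 2-fold lower and none 2-fold higher, beside 1.26% and 0.356% of all genes, and the median was -0.20. Ccl17, a chemokine for T cells made by dendritic cells and macrophages, had 9.23 at 24 h and 12.07 at 6 h, 7.15-fold lower. Bcl2, encoding a survival protein, had 5.91 at 24 h and 7.55 at 6 h, 3.11-fold lower. Cish, a feedback inhibitor induced by STAT5, had 8.23 at 24 h and 9.79 at 6 h, 2.96-fold lower, and Socs2, another such inhibitor, differed by -0.88. The receptor chains did not follow: Csf2ra had 10.06 at 24 h and 10.02 at 6 h, and Csf2rb had 11.86 at 24 h and 12.02 at 6 h. Il2ra, which encodes the high-affinity chain of the interleukin-2 receptor, had 5.06 at 24 h and 7.79 at 6 h, at least 5.35-fold lower.

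Of 41 inflammatory genes kept, 7 were 2-fold lower and 2 were 2-fold higher, beside 1.26% and 0.356% of all genes, with a median of -0.21. Ccl2, the main chemokine for monocytes, had 7.40 at 24 h and 9.49 at 6 h, 4.24-fold lower. Ccl7, another ligand of the receptor CCR2, had 5.51 at 24 h and 6.83 at 6 h, 2.50-fold lower. Ccl4 and Cxcl2 differed by -1.13 and -1.02, Ccl12 was dim at 24 h (4.73 against 5.79 at 6 h) and at least 1.33-fold lower, and Ccl17 and Lcn2, described above, are members too. In the other direction, Saa3, an acute-phase gene of macrophages, had 8.30 at 24 h and 6.66 at 6 h, 3.12-fold higher, and Il1b, the gene of interleukin 1 beta, had 7.56 at 24 h and 6.33 at 6 h, 2.34-fold higher. Il1r2, the decoy receptor for interleukin 1, was dim at 24 h (4.49 against 6.90 at 6 h) and at least 2.88-fold lower. No interferon-stimulated gene of 32 passed 2-fold, with a median of 0.07.

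Among the genes that were higher at 24 h, several encode surface receptors of macrophages. Adgre4, an adhesion receptor related to F4/80, had the highest difference, with 7.15 at 24 h and 4.94 at 6 h, at least 3.42-fold higher. Klra17, a lectin-like receptor of the Ly49 family, had 9.25 at 24 h and 7.08 at 6 h, 4.50-fold higher. Ms4a7, a membrane-spanning protein found in macrophages, had 9.02 at 24 h and 6.95 at 6 h, 4.19-fold higher, and its relative Ms4a6c had 8.74 at 24 h and 7.32 at 6 h. Fcgr4, an activating Fc receptor, had 9.50 at 24 h and 7.999 at 6 h, 2.84-fold higher. The rest of the 20 highest genes included Bex1 (1.65), Arrdc3 (1.49), Mamdc2 (1.43), Slc44a1 (1.32), Sdc1 (1.29), Gdpd3 (1.25) and Adgre5 (1.24). Sult1a1, a sulfotransferase gene, had 6.31 at 24 h and 5.06 at 6 h, and the bound of at least 1.92-fold is under the limit.

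The wider macrophage list differed little. Of 34 genes 25 had a positive difference, beside 5514 of all 11516 genes. Only Apoe passed 2-fold, beside 0.356% of all genes higher, and the median was 0.21. Adgre1, the gene of F4/80, differed by 0.18, Csf1r by 0.41, Mertk, a receptor for apoptotic cells, by 0.48 and C1qa, a complement component, by 0.52. Mrc1, the mannose receptor, differed by -0.25, and Marco, a scavenger receptor, by -0.99, with 6.97 at 24 h and 7.96 at 6 h. The 8 macrophage markers summed to 19159 at 24 h and 16453 at 6 h. Among lysosomal genes 29 of 36 were positive, beside 5514 of all 11516 genes, with a median of 0.16. None passed 2-fold, beside 0.356% of all genes higher, and the highest value was 0.97 for Ctsh, a lysosomal protease.

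Among lipid genes, 2 of export were higher and 3 of synthesis lower. Apoe, which encodes the lipoprotein of cholesterol export, had 8.70 at 24 h and 6.96 at 6 h, 3.34-fold higher. Abca1, the membrane transporter that loads that lipoprotein, had 9.07 at 24 h and 7.87 at 6 h, 2.29-fold higher. Both are known targets of the sterol receptor LXR. They were the only genes of 15 in the list of PPARG and LXR lipid handling to pass 2-fold, beside 0.356% of all genes higher. That list had 8 positive and 7 negative members and a median of 0.10. On the synthesis side, Fads2, a fatty acid desaturase, had 7.92 at 24 h and 9.22 at 6 h, 2.47-fold lower. Elovl6, an elongase, and Fasn, the fatty acid synthase gene, differed by -1.18 and -1.13. These were the 3 of 23 genes of fatty acid synthesis and storage past the limit, beside 1.26% of all genes, and the median was -0.36. No gene of cholesterol synthesis passed it, but 19 of 20 were negative, beside 52.1% of all genes. The median was -0.29 and the lowest value, -0.96, was that of Fdps.

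Genes of amino acid supply and ribosome production were mostly lower at 24 h. Of 32 genes of the ATF4 stress response 29 were negative and 3 were 2-fold lower, beside 52.1% and 1.26% of all genes. The list's median was -0.29. Psat1, an enzyme of serine synthesis, had 5.88 at 24 h and 7.20 at 6 h, 2.49-fold lower. Slc7a5, an importer of large amino acids, had 7.34 at 24 h and 8.64 at 6 h, 2.46-fold lower, and Mthfd2, a mitochondrial folate enzyme, had 6.40 at 24 h and 7.50 at 6 h, 2.14-fold lower. Of 35 ribosome biogenesis genes 31 were negative, beside 52.1% of all genes, with a median of -0.26. None passed 2-fold, beside 1.62% of all genes in either direction. The 50 genes of oxidative phosphorylation had a median of -0.02 and the 35 of glycolysis and hypoxia 0.15. None of either list passed the limit, beside the same 1.62%.

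The series concerned iron-recycling macrophages, so genes of iron handling were examined. Slc40a1, which encodes ferroportin, the iron exporter, had 8.51 at 24 h and 6.79 at 6 h in vehicle, 3.31-fold higher. Hfe, a regulator of iron sensing, had 7.04 at 24 h and 5.94 at 6 h, 2.13-fold higher. Tfrc, the transferrin receptor, had 6.89 at 24 h and 7.56 at 6 h. Hmox1, the heme-degrading oxygenase, had 10.44 at 24 h and 10.54 at 6 h, and Spic, the gene altered in these mice, had 6.09 at 24 h and 5.76 at 6 h. Of 30 genes of heme and iron handling, Slc40a1 and Hfe were 2-fold higher and Ltf 2-fold lower, beside 0.356% and 1.26% of all genes, with a median of 0.08.

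Of 29 dendritic cell genes kept, 4 were 2-fold lower and 1 higher, beside 1.26% and 0.356% of all genes, with a median of -0.01. Mgl2, a galactose-binding lectin of dermal dendritic cells and alternatively activated macrophages, had 9.27 at 24 h and 10.43 at 6 h, 2.24-fold lower. Kmo, a tryptophan-degrading enzyme, and Dpp4, a surface peptidase, were dim at 24 h and at least 1.99-fold and 1.76-fold lower. Itgax, the gene of CD11c, differed by 0.10 and Cd74, the class II invariant chain, by 0.02. Of 15 class II genes only H2-Oa passed the limit, beside 1.26% of all genes lower. H2-Oa, which encodes a chain of the peptide-loading regulator DO, had 6.89 at 24 h and 8.04 at 6 h. Cdh1, the gene of E-cadherin, had 6.76 at 24 h and 8.53 at 6 h, 3.41-fold lower, and Plau, the urokinase gene, had 7.68 at 24 h and 9.03 at 6 h, 2.56-fold lower. Plau was the only gene of 22 in the list of matrix metalloproteinases and protease inhibitors to pass 2-fold, beside 1.26% of all genes lower. That list's median was -0.04.

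The vehicle array at 72 h placed these values in a longer series. Between 72 h and 24 h, 59 genes (0.512%) were 2-fold higher and 84 (0.729%) 2-fold lower at 72 h, 1.24% together. This comparison shares the 24 h array with the one above, so the differences are not independent and are only set side by side. Mki67 had 8.50, 7.28 and 6.12 at 6, 24 and 72 h, and Bub1 had 7.19, 5.63 and 4.87. Ngp had 9.83, 6.58 and 5.02, and Ccl17 had 12.07, 9.23 and 6.44. For these genes each later array was lower than the one before it.

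In other genes most or all of the difference lay before 24 h. S100a8 had 11.94, 9.91 and 9.38 at 6, 24 and 72 h, and Mcm2 had 7.13, 5.81 and 5.96. Ccl2 had 9.49, 7.40 and 7.17, Bcl2 7.55, 5.91 and 6.51, and Ccnd2 8.34, 6.996 and 7.497. Among the genes higher at 24 h, Apoe had 6.96, 8.70 and 11.12 and Il1b 6.33, 7.56 and 8.87, higher at each time, while Klra17 had 7.08, 9.25 and 9.36 and Slc40a1 6.79, 8.51 and 8.82.

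The list medians of both steps are set side by side. The steps, 6 to 24 h and 24 to 72 h, are of unequal length, so these values are not rates. Over all genes the medians were -0.01 and -0.04. For mitosis the median difference was -0.94 between 24 h and 6 h and -0.74 between 72 h and 24 h. For DNA replication the medians were -0.62 and -0.20, and for fatty acid synthesis and storage -0.36 and -0.11. For cholesterol synthesis the value was larger over the later and longer step, with -0.29 between 24 h and 6 h and -0.84 between 72 h and 24 h.

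**Figure D3:**
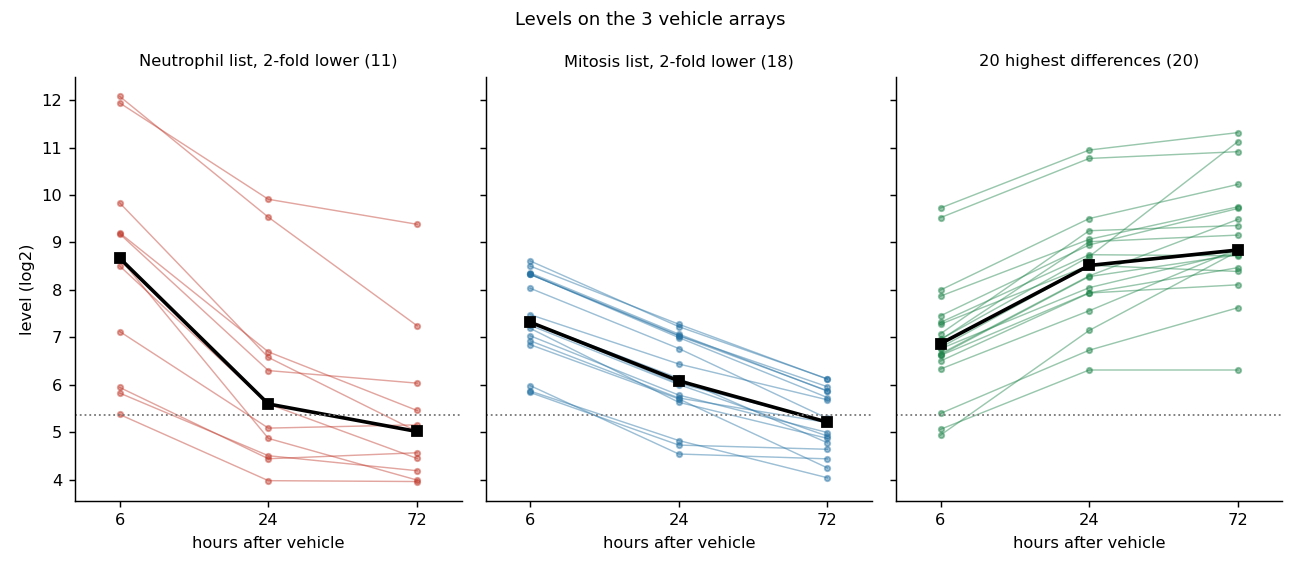
Levels (y axis, log2) on the vehicle arrays at 6, 24 and 72 h (x axis) of the 11 neutrophil genes and 18 mitosis genes that were 2-fold lower at 24 h than at 6 h and of the 20 named genes with the highest differences, 1 thin line per gene. Black squares are medians over the genes, and the dotted line is the table's median level of 5.37. Panels were chosen by the 24 h to 6 h difference, and the step to 72 h shares the 24 h array, so neither step is independent of that choice.

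Heme cultures passed through the same hours on separate arrays, so the vehicle change can be set against them without a shared array. In heme, 241 genes (2.09%) were 2-fold higher and 129 (1.12%) 2-fold lower at 24 h than at 6 h, so that 3.21% passed the limit, with a median of 0.06. Across the 11516 genes the vehicle and heme differences correlated at a Pearson r of 0.438 and a Spearman rho of 0.359, as a description over genes that share arrays, not over samples. Of the 41 genes higher in vehicle, 19 were also 2-fold higher in heme, which is 46.3% of the vehicle list and 7.88% of the heme list. Of the 145 genes lower in vehicle, 33 were also 2-fold lower in heme, which is 22.8% of the vehicle list and 25.6% of the heme list. Signs matched for 40 of the 41 and 132 of the 145 genes. The share of matching signs over all genes is not given here, so these counts have no background beside them. The median differences of the 41 genes were 1.20 in vehicle and 0.92 in heme, and those of the 145 genes -1.21 in vehicle and -0.71 in heme. Vehicle values chose these genes, so the medians are a description.

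The neutrophil list held some of the largest gaps between the cultures. Stfa2 differed by -3.80 in vehicle (at least -3.29) and by -0.88 in heme, where it had 8.04 at 24 h and 8.92 at 6 h. Stfa3 differed by -2.91 in vehicle and by -0.11 in heme, Lcn2 by -2.51 and 0.12, S100a9 by -2.55 and -0.46, and S100a8 by -2.03 and -0.35. Ngp, Camp and Ltf were lower in both, by -3.26, -2.88 and -2.03 (at least -1.75) in vehicle and by -1.92, -1.29 and -1.24 in heme. At 6 h the 2 cultures had close levels of these genes, for instance 9.83 in vehicle and 10.34 in heme for Ngp and 9.20 in vehicle and 9.20 in heme for Lcn2. The list median was -0.75 in vehicle and -0.11 in heme. Whether the gap between the cultures exceeds the variation between dishes was not tested.

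Mitosis and replication genes had higher levels in vehicle than in heme at the 6 h start. This held for 39 of 40 mitosis genes and 37 of 38 replication genes, with Mki67 (8.50 in vehicle and 8.52 in heme) and Tk1 (7.69 in vehicle and 8.01 in heme) as the exceptions. The same count over all kept genes is not given here, so these counts have no background beside them. Over all probe sets the median level at 6 h was 5.34 in vehicle and 5.45 in heme. The 6 h vehicle array enters both this count and the vehicle difference, so the values are only set side by side. Mcm6 had 7.73, 5.86 and 5.42 at 6, 24 and 72 h in vehicle and 6.09, 5.98 and 5.78 in heme, so the 6 h vehicle array stood above the 5 others. Tyms had 7.70 in vehicle and 6.69 in heme at 6 h, and 6.31 in vehicle and 6.80 in heme at 24 h. Bub1 had 7.19 in vehicle and 6.34 in heme at 6 h, and 5.63 in vehicle and 5.57 in heme at 24 h. The median difference of the mitosis list was -0.94 in vehicle and -0.62 in heme, and that of the replication list -0.62 in vehicle and -0.13 in heme. In heme 1 of the 40 mitosis genes and none of the 38 replication genes was 2-fold lower, beside 1.12% of all genes.

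Several differences were close in both cultures. Ccl2 differed by -2.09 in vehicle and -1.99 in heme, Cish by -1.56 and -1.67, Cdh1 by -1.77 and -1.47, Fasn by -1.13 and -1.18, Myc by -1.16 and -1.004 and Csf3r by 1.33 and 1.37. Abca1 differed by 1.20 and 1.45. Other genes differed in the same direction by unlike amounts, as Il2ra did by -2.73 in vehicle (at least -2.42) and -2.08 in heme, Adgre4 by 2.21 in vehicle (at least 1.77) and 2.96 in heme, and Saa3 by 1.64 in vehicle and 2.38 in heme.

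Other genes had a difference in 1 culture and little or the opposite in the other. Klra17 differed by 2.17 in vehicle and 0.28 in heme, Ms4a6c by 1.42 and 0.02, and Apoe by 1.74 and 0.49. Ly6i, a Ly6 family surface protein, differed by 0.09 in vehicle and 2.84 in heme, and Hp, the haptoglobin gene, by 0.46 and 2.63. Cxcl10, an interferon-induced chemokine, had 4.92 at 24 h and 5.41 at 6 h in vehicle, and 5.65 at 24 h and 8.08 at 6 h in heme. Cyp4a12a and Cyp4a12b, close copies of a fatty acid hydroxylase gene that probes may not tell apart, differed by 0.96 and 0.63 in vehicle and by -1.52 (at least -1.47) and -1.47 in heme. Ppbp, a platelet chemokine gene, was the only gene past 2-fold in opposite directions, with 4.97 at 24 h and 6.75 at 6 h in vehicle, and 9.17 at 24 h and 7.87 at 6 h in heme. None of these gaps could be tested with 1 array per culture and time.

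**Figure D4:**
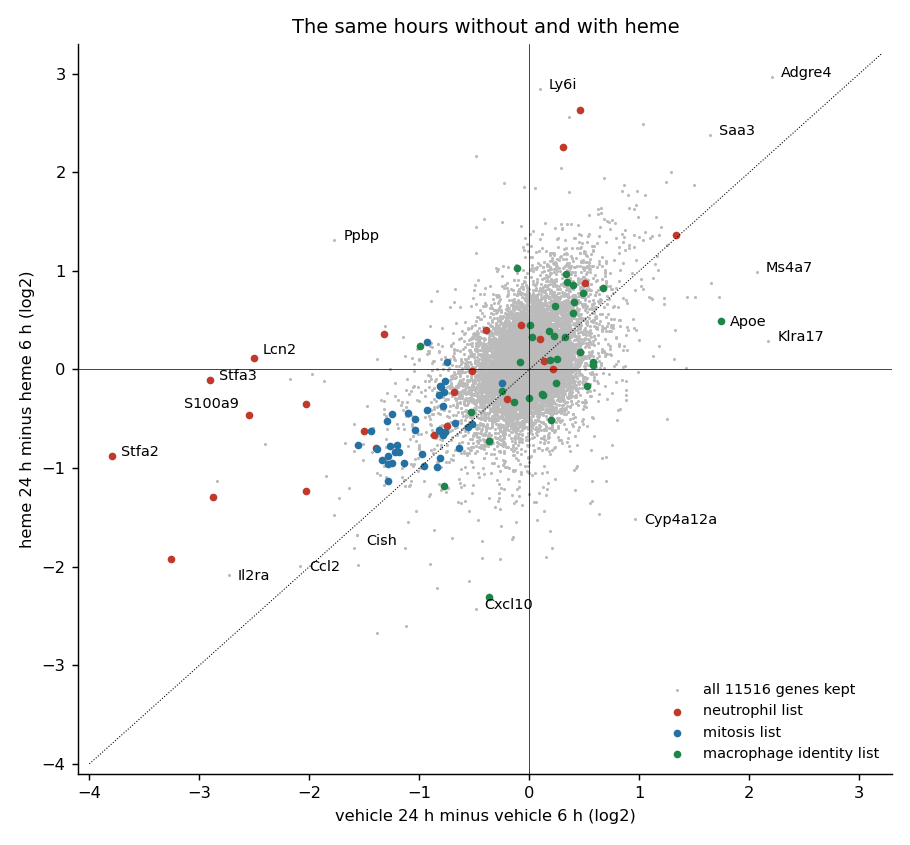
Difference 24 h minus 6 h in vehicle cultures (x axis, log2) against that in heme cultures (y axis, log2), 1 point per gene, 11516 genes. The dotted diagonal marks equal differences. Several neutrophil genes, among them Stfa3 and Lcn2, lie far to the left near 0 on the heme axis, Ppbp lies in the upper left, and Adgre4 is high on both axes.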

How the data were processed

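The study profiled adherent cells on 6 arrays, of which the vehicle arrays at 24 h and 6 h are compared here. The authors deposited log2 expression values for 35556 probe sets, which RMA with quantile normalization had produced in ArrayStar, per the series' design text and the submitters' processing notes; versions and scanner values were not used here. RMA compresses differences of dim probe sets. The number of arrays limits the precision.

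In the platform annotation 21789 probe sets named a single gene, 1621 named several and 12146 were not listed. Current symbols of the GRCm38.p6 gene table matched 21701 of them and updated 2. Where a gene had more than 1 (1001 genes), the brightest on average represented it. Of the 186 genes past 2-fold, 10 had several probe sets, and these had the same sign in all 10.

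Differences were computed in Python 3.11.15 with pandas 2.3.3, with no test. The median level of 5.37 served as a floor for bounds. The counting step was tested on simulated data.

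The members and 41 gene lists were chosen with earlier results of these data known, and some genes are on several lists. The rule for named genes took the 20 highest and 20 lowest differences (predicted genes, small RNAs and olfactory receptors left out), up to 5 members of each list, 5 genes on each side of the gap between vehicle and heme, and 12 genes by name. Other genes named, such as Olfm4, Trem1, Ly6g, Fen1, Mcm5, Ndc80, Pcna, Tk1, Ccl4, Ccl12, Cxcl2, Csf2ra, Csf2rb, Hp, Birc5, Nusap1 and genes beside the limits, were chosen after their values were seen or as markers. Of the 12, Gapdh had no level here.

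Alternatives included cyclic loess (limma 3.58.1 in R 4.3.3), median-centring, a second quantile normalization, no filter, a filter at the 75th percentile or on the 2 vehicle arrays, dim levels at the median, an offset of 16, the mean of probe sets, and limits of 1.5-fold and 4-fold.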

Additional observations from a re-analysis of the deposited data

Results flagged for a closer look

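Ppbp, which encodes a platelet chemokine, was the only gene of the 11516 that passed 2-fold in opposite directions in the 2 cultures. It differed by -1.77 between 24 h and 6 h in vehicle and by 1.31 in heme, on the log2 scale. The vehicle value is a difference against a 24 h level below the table's median, and with that level at the median it is at least -1.37. The difference between the cultures was not tested, since each culture and time had 1 array.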

How the results depend on the processing

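The counts of 41 genes higher and 145 genes lower at 24 h stayed within 1.5 times under a second quantile normalization (41 and 132), median-centring (41 and 148), cyclic loess (40 and 147), no level filter (45 and 150), a filter on the 2 vehicle arrays (40 and 145), the mean of probe sets (40 and 142) and dim levels set to the median (37 and 115). With a filter at the 75th percentile 38 genes were higher and 87 lower, and fewer genes entered. An offset of 16 on the linear scale gave 29 and 84. A limit of 1.5-fold gave 252 and 460, and a limit of 4-fold 3 and 13. None of the 75 named genes past 2-fold reversed in any setting, and 13 fell under it in at least 1 setting; of these Slc44a1 (0.99 as the mean of its probe sets), Dusp6 (-0.97 after quantile normalization) and Gpr141 (0.99 after loess) did so outside the offset and the bound. Marco (-0.99) reached 2-fold under median-centring and loess. The neutrophil median was -2.03 with the 75th percentile filter, -1.09 with the filter on the vehicle arrays and -0.45 with dim levels at the median, against -0.75. The filters drop members dim on the arrays they read, so these medians are over different members. How much this selection adds was not tested. List medians changed sign or became 0 in 12 instances, in 7 lists whose medians lay within 0.07 of 0. The median of all genes lay furthest from 0 under cyclic loess, at -0.022. No paired analysis was possible because each group had 1 array. Dim signal limits what can be said of 38 of the lower genes, whose 24 h level was under the median.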
